A study of Mus musculus with 2 samples.

Results

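Leukocytes leave and enter tissues through adhesion receptors and through receptors for a lipid gradient, and the genes described here are 9 of these: the integrin subunits Itgae, Itgb7, Itga4, Itgal, Itgb1 and Itgb2, the selectin ligand Selplg, and the sphingosine 1-phosphate (S1P) receptors S1pr1 and S1pr4. They were chosen by name as a family of trafficking molecules, with earlier results of these data known. All 9 were found among the 21631 protein-coding genes on chromosomes 1 to 19 and X of the RefSeq annotation. Each was examined over its gene body with 20 kb on either side, here called its window. The windows were touched by 67 of the 54527 regions enriched for H3K36me2 in wild-type cells and by 74 of the 39745 regions in knockout cells. Both groups were Treg cells from the spleen of C57BL/6 mice, 1 wild type and 1 with a Treg conditional knock out of Nsd2, a gene for an enzyme that dimethylates H3K36. The Nsd2 allele, the Cre driver, the antibody, the age of the mice and any pooling of animals were not given in the sources used here, and no value here checks the deletion. Each genotype was 1 library, of 17158154 tags for wild type and 14789700 for the knockout, so no difference has a replicate check and no test between genotypes was possible.

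Integrins are pairs of an alpha and a beta subunit that bind ligands on other cells or in the matrix once signals from inside the cell have activated them. Itgal with Itgb2 forms LFA-1, the ICAM receptor of T cells, Itga4 with Itgb7 or with Itgb1 forms receptors for MAdCAM-1 and VCAM-1, and Itgae, also known as CD103, pairs with Itgb7 to form an E-cadherin receptor found on T cells in epithelia. Selplg encodes PSGL-1, on which cells roll along selectins. S1P receptors read the S1P gradient that draws lymphocytes out of lymphoid organs, with S1pr1 as the main egress receptor of T cells and S1pr4 as a lymphocyte receptor of the same family. H3K36me2, dimethylation of lysine 36 on histone H3, lies in broad stretches within and between genes.

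The stretch just before the gene start is printed for the 4 genes that the RefSeq promoter table holds, to show where the mark lay in relation to the start. The sequences are the 250 bases before the start, from build GRCm38.p6 (mm10), 5′ to 3′ on the strand of the gene. Capitals mark matches, on either strand, to GGGCGG (the GC box), CCGGAAG (an ETS motif) or TGTGGT (a RUNX motif), which do not overlap one another here. The Itgb7 start in that table lies inside the outer end of the annotated gene. Itga4 lies at chr2:79255176-79255425 on the plus strand and Itgb7 at chr15:102231936-102232185 on the minus strand. Itgb1 lies at chr8:128685404-128685653 on the plus strand and S1pr4 at chr10:81500138-81500387 on the minus strand.

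Itga4: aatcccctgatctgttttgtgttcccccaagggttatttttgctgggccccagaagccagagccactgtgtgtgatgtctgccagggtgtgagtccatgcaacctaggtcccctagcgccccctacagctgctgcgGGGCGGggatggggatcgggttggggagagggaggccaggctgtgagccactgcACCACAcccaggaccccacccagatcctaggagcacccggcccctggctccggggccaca
Itgb7: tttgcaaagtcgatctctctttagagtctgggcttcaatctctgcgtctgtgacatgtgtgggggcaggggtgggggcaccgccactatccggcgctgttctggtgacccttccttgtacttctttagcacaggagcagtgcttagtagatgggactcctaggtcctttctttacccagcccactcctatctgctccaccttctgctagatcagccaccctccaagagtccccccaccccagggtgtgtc
Itgb1: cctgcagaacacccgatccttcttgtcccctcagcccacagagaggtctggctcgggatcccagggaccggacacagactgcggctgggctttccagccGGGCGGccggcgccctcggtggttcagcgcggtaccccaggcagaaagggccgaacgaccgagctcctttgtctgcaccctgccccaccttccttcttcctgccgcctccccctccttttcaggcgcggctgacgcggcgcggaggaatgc
S1pr4: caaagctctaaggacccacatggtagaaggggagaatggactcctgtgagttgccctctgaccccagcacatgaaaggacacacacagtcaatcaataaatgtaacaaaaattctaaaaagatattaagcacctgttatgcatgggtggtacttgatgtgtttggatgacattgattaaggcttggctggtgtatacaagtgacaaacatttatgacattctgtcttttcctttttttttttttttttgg

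All 250 bases of the Itga4 and Itgb7 stretches lay inside regions in both libraries. Of all 32619 promoters in the table, 5.23% were wholly inside wild-type regions and 5.15% inside knockout regions. No base of the Itgb1 or S1pr4 stretch lay in a region of either library. The Itgb1 stretch was the richest in CpG of the 4, with 21 CpG dinucleotides and 68.0% G and C, the 84.3rd percentile of all promoters for CpG. Itga4 had 6 CpG and 64.0% G and C, and Itgb7 had 5 CpG and 56.0%. The S1pr4 stretch held no CpG and 38.8% G and C, which put it at the 3.88th percentile. Itga4 held 1 GC box, from 114 to 109 bases before its start, and 1 RUNX match, from 60 to 55 bases before it. Itgb1 held 1 GC box, from 151 to 146 bases before its start, and no ETS match was found in any of the 4. Among all promoters of this length 33.0% hold the GC box, 6.96% the ETS motif and 13.9% the RUNX motif, so a match is a description of the letters and not a site.

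Summed over the 9 windows, covered length was 76053 bp in wild-type cells and 72966 bp in the knockout, 11.6% and 11.1% of the windows, so the knockout had 95.9% of the wild-type length. Over all coding genes the same windows were covered to 2.78% and 2.28%, with 82.0% of the wild-type length in the knockout. Over the 4912 coding genes whose mean covered share lay within the members' range the knockout had 88.2% of the wild-type length. The number of regions was 110% of wild type (exact 95% interval 78.3 to 156, counting error only), against 72.8% over the same chromosomes as a whole. That comparison depends on the calling thresholds, which differed between the libraries. With wild-type regions of 500 bp kept only at a score of at least 13.9, the knockout threshold of 12 tags scaled to the wild-type depth, the ratio of region numbers over those chromosomes was 1.04 and that of covered length 0.92, in place of 0.74. In the 9 windows the same ratios were then 1.30 and 1.03. The summed normalised tag count of these regions, which is the authors' value scaled to 10000000 tags per library, was 1268 in wild-type cells and 1279 in the knockout. That scaling sets both libraries to the same total, so a change in the total amount of the mark cannot be read from these values. The share of tags inside regions can still differ. It was 7.17% in wild type and 5.89% in the knockout, and the ratio of scaled tags over all regions was 0.80. How far this reflects library quality was not tested. In sorted cells read in bulk, fewer marked cells and less mark per cell cannot be told apart.

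Of the 9 genes, 4 had more covered length in the knockout, 4 had less and Itgb1 had none in either library. More covered length in the knockout was seen in 25.8% of all coding genes. It was seen in 41.8% of the 4912 genes with covered share in the members' range, near the 44.4% of the members. A window was called when its covered length differed by at least 1.5-fold and the larger library covered at least 2000 bp. This is a threshold on size with no test behind it. By this rule 8 members could be judged, S1pr1 was lower in the knockout and none was higher. Over all 8161 coding genes that could be judged, 39.6% were lower and 15.4% higher. Among the genes with covered share in the members' range 4890 could be judged, of which 1356 were lower and 774 higher. The median ratio of knockout to wild-type covered length was 100.3% over the 8 members, 78.9% over those 8161 genes and 90.7% over those 4890. On gene bodies alone, with a difference of at least 20 percentage points of covered share as the rule, none of the 8 members measured was lower or higher, against 1.71% and 1.93% of 11217 genes. For every member with regions, the 95% counting interval of the ratio of region numbers contained 1.

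**Figure D1:**
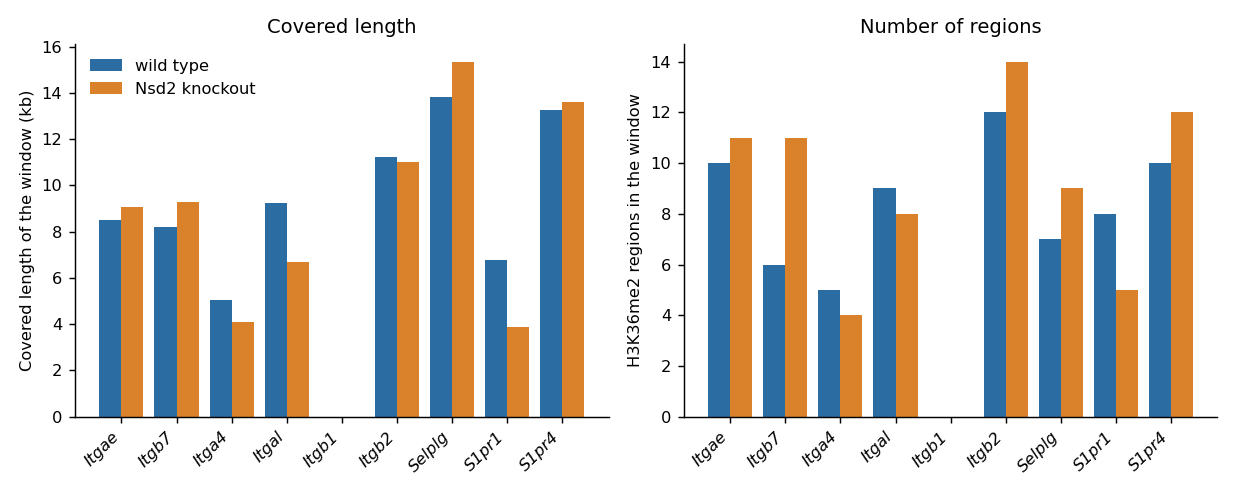
Covered length in kb (left) and number of H3K36me2 regions (right) in the window of each of the 9 genes, with 1 bar for the wild-type library and 1 for the Nsd2 knockout library, and no error bars because each genotype was 1 library. Selplg and S1pr4 carried the most covered length in both libraries, S1pr1 went from 6761 bp in wild type to 3884 bp in the knockout, and Itgb1 had no region.

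Calls in these windows sat close to the authors' detection threshold. That threshold was 13 tags per 500 bp in wild-type cells and 12 in the knockout, or 7.58 and 8.11 tags after scaling, so the caller asked for more signal in the shallower knockout library. Per kb these are 15.2 and 16.2 normalised tags, whereas the median density of the member regions was 15.6 and 16.9. All 67 wild-type and all 74 knockout regions had a density of at most 1.5 times the threshold, so presence or absence of a short region can rest on a few tags. The same share was not computed over all regions, so it is not read as particular to these windows. Regions of the minimum length of 500 bp made up 28.4% of member regions in wild type (18.0 to 40.7) and 40.5% in the knockout (29.3 to 52.6), against 52.7% and 54.3% of all regions.

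Selplg, encoding PSGL-1, carried the longest domains of the family, and they kept their place in the knockout. Its gene lies on chromosome 5 from 113817798 to 113832528, and its window was covered to 25.3% in wild-type cells and 28.1% in the knockout, the 98.8th and 99.1st percentile of all coding genes. In wild type 1 region of 5075 bp ran from 113823989 to 113829064 inside the gene, and in the knockout its counterpart of 4689 bp ran from 113824393 to 113829082, so that the far edges lay 18 bp apart. These regions held 91.8 normalised tags in wild type (78.3 to 107.6, counting error) and 78.8 in the knockout (65.4 to 94.8). The neighbouring wild-type domain of 5434 bp ran from 113830038 to 113835472 across the upper-coordinate end of the gene with 104.0 tags. In the knockout the same stretch held a region of 4192 bp with 98.7 tags and a second of 652 bp with 10.5 tags. By length the 5434 bp region ranked 180th of 54422 wild-type regions and the 4689 bp region 262nd of 39645 in the knockout.

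Of the Selplg gene body, 51.4% was covered in wild-type cells and 50.2% in the knockout, with no region in the lower-coordinate of 3 equal parts in either library. Its flanks held 6260 bp in wild-type cells and 7957 bp in the knockout. A knockout region of 1720 bp with 26.7 tags, from 113845655 to 113847375, had no wild-type counterpart and lay inside the neighbouring gene Coro1c, an actin-binding coronin. Over its whole body Coro1c had less cover in the knockout, 4056 bp against 6929 bp.

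**Figure D2:**
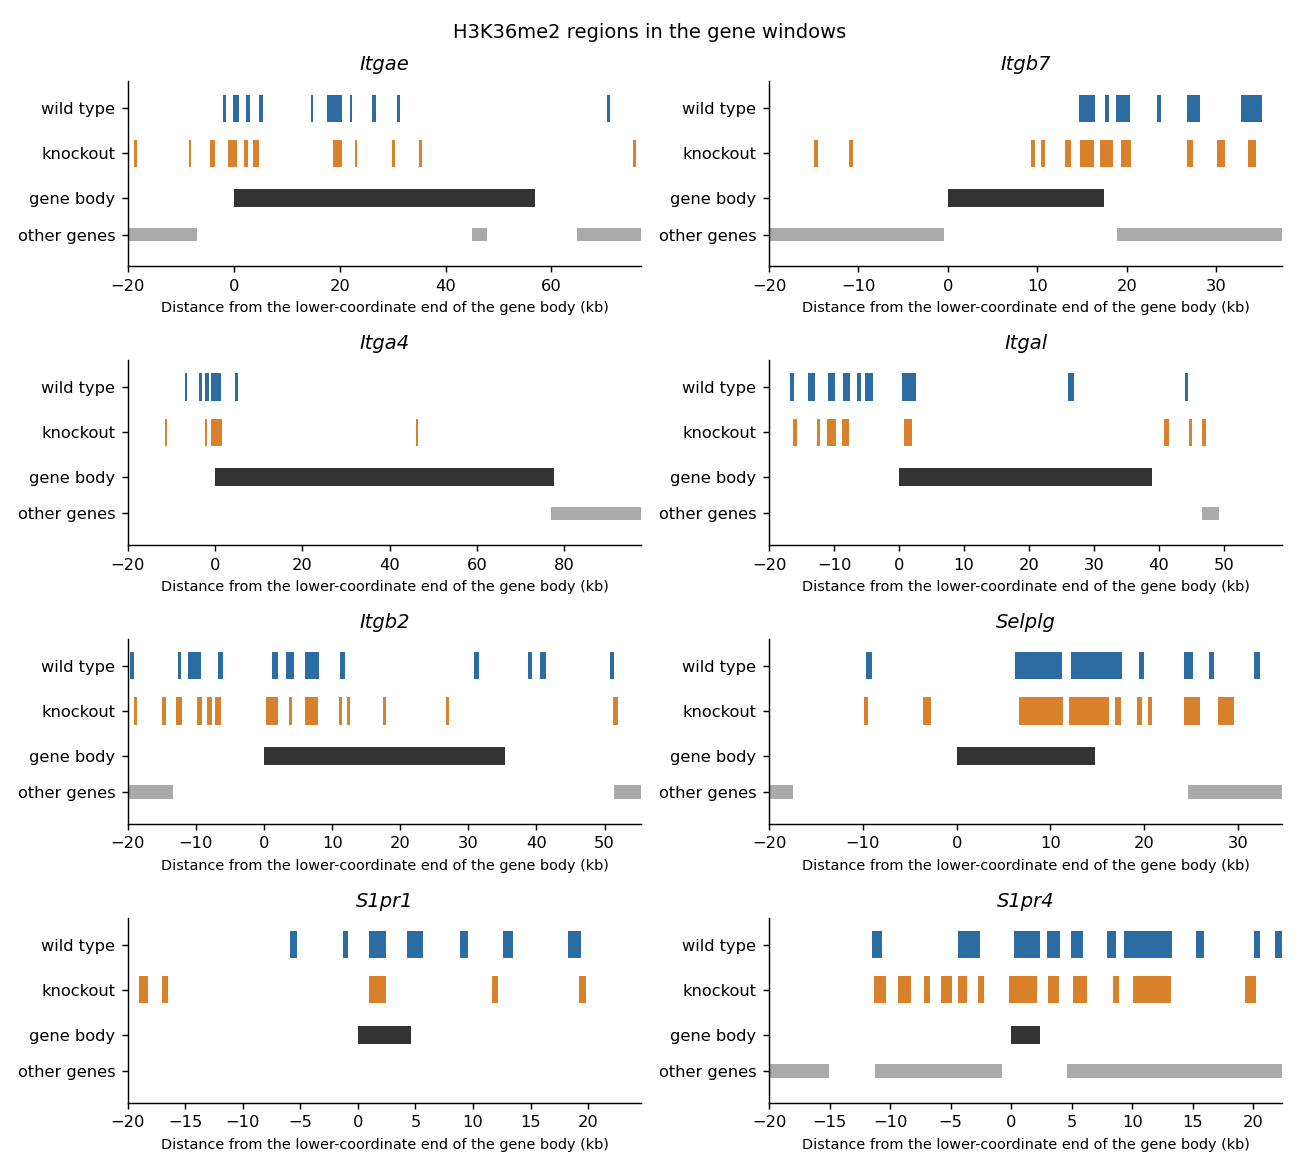
H3K36me2 regions in the windows of the 8 genes that held any, drawn to scale against distance in kb from the lower-coordinate end of the gene body, with wild-type regions above knockout regions, the gene body in black and the bodies of other protein-coding genes in grey. Broad regions recur at the same place in both libraries at Selplg, S1pr4 and one end of Itga4 and Itgal, while most short regions appear in 1 library.

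Itgal, the alpha subunit of LFA-1, had less cover in the knockout, short of the 1.5-fold rule. Its window held 9248 bp in 9 regions in wild-type cells and 6670 bp in 8 regions in the knockout, a ratio of 0.72. That was near the 0.74 of all regions, and the median over all coding genes judged was 78.9%. The summed tags at Itgal were 157.9 and 126.3. The gene lies on chromosome 7 from 127296139 to 127335137. Its main region started 479 bp into the lower-coordinate end in wild-type cells and was 2148 bp long with 43.1 tags (33.9 to 54.1), and in the knockout it was 1317 bp long with 27.7 tags (19.9 to 37.6). The density in that region was 20.1 normalised tags per kb in wild-type cells and 21.0 in the knockout. A second region of 929 bp with 15.4 tags, 25957 bp into the gene, was called in wild-type cells and not in the knockout. Outside the gene, on the lower-coordinate side, 6 wild-type regions and 4 knockout regions covered 5671 bp and 3482 bp, and 2 regions there were matched closely, with 21.3 and 25.0 tags in one and 20.4 and 23.0 in the other. The upper-coordinate flank of Itgal went the other way, with 500 bp in 1 wild-type region and 1871 bp in 3 knockout regions.

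Itgb2, the beta subunit that pairs with Itgal, had nearly equal cover, with 11240 bp in 12 regions in wild-type cells and 11030 bp in 14 regions in the knockout. The gene lies on chromosome 10 from 77530329 to 77565708, and its body was covered to 15.8% and 17.2%. In both libraries the lower-coordinate of 3 equal parts of the gene held most of this, with 4690 bp and 4603 bp. Within it, the region of 1953 bp with 30.3 tags in wild type matched one of 1860 bp with 32.5 tags in the knockout. Its neighbours differed in opposite directions. A region of 895 bp with 14.0 tags (8.96 to 20.8) in wild type was 1743 bp with 33.8 tags (25.1 to 44.6) in the knockout, and a region of 1273 bp with 23.6 tags (16.7 to 31.7) in wild type was 500 bp with 9.47 tags (5.18 to 15.9) in the knockout. For both the counting intervals of the tags did not overlap, and the lengths over which tags were summed differed too.

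Itgb7, which pairs with Itgae or Itga4, had the largest difference in region number, with 6 in wild-type cells and 11 in the knockout (ratio 1.83, interval 0.62 to 6.04). Covered length was 8186 bp and 9271 bp, and summed tags were 119.5 and 157.9. The gene lies on chromosome 15 from 102215994 to 102233405. In its body 1781 bp was covered in wild type, all in the region over the printed promoter, and 3516 bp in the knockout, 10.2% and 20.2% of the gene. The promoter region itself was alike, with 1781 bp and 23.6 tags (16.7 to 31.7) in wild-type cells and 1489 bp and 23.0 tags (15.9 to 32.1) in the knockout. The added knockout cover inside the gene came from 3 regions of 500 to 639 bp and from 388 bp of a region at the upper-coordinate end. That region was 1440 bp long with 25.0 tags, and its wild-type counterpart, 500 bp with 8.16 tags, lay just outside the gene. In the adjoining gene Rarg, a retinoic acid receptor, cover ran the other way, with 6230 bp in wild-type cells and 3703 bp in the knockout.

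Itgae, the alpha subunit of the E-cadherin receptor, had 10 regions over 8484 bp in wild-type cells and 11 over 9052 bp in the knockout. A length of 2610 bp was covered in both libraries. The Jaccard index is the base pairs covered in both over those covered in either. For Itgae it was 17.5%, the lowest of the 8 genes with regions. S1pr1 was close at 18.0%, the windows pooled gave 36.2%, and the index was not computed over all genes. Of the 10 wild-type and 11 knockout regions of Itgae, 3 each overlapped the other list, against 29.8% and 41.0% of all regions. In wild type this was near the share of all regions. Regions of 500 bp, 5 and 6 of those at Itgae, are shared at 16.0% and 25.7% over all regions. The low overlap is therefore not read as particular to Itgae. The gene lies on chromosome 11 from 73090505 to 73147449, and its body was covered to 12.9% and 9.81%. A region at the lower-coordinate end was called in both, with 1065 bp and 18.9 tags (12.8 to 26.3) in wild-type cells and 1651 bp and 30.4 tags (22.2 to 40.7) in the knockout. The longest wild-type region of this gene, 2956 bp with 51.6 tags (41.7 to 63.8), lay from 73108037 to 73110993, and its knockout counterpart was 1679 bp with 28.4 tags (20.5 to 38.4). Their upper edges were 29 bp apart and their lower edges 1248 bp apart. The upper-coordinate of 3 equal parts of the gene, in which the kinase gene Haspin is nested, held no region in either library.

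Itga4, the alpha subunit of the VCAM-1 and MAdCAM-1 receptors, carried its mark mostly near its start. Its window held 5025 bp in 5 regions in wild-type cells and 4082 bp in 4 regions in the knockout. The gene lies on chromosome 2 from 79255426 to 79333114. The region over the printed promoter was 2270 bp with 38.2 tags (29.7 to 48.9) in wild-type cells and 2582 bp with 41.9 tags (32.1 to 53.7) in the knockout. Within the 77689 bp gene body 2137 bp and 2162 bp were covered, or 2.75% and 2.78%. The upstream side held 2888 bp in wild-type cells and 1920 bp in the knockout, and 1 knockout region of 500 bp lay 46063 bp into the gene.

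Itgb1, the beta subunit of the widely expressed VLA integrins, stood apart from the other 8 in holding no region in its window of 87926 bp on chromosome 8. The gene lies from 128685654 to 128733579, and the region nearest to its start was 29830 bp away in wild-type cells and 24476 bp away in the knockout. Of all coding genes, 6097 (28.2%) held no region in either library. That no stretch was called there does not show that the mark was absent. With 50 kb on either side the window held 1000 bp in 2 regions in each library.

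The S1P receptors had the smallest gene bodies of the family. S1pr1, the main egress receptor, was the only member called, with 6761 bp in 8 regions in wild-type cells and 3884 bp in 5 regions in the knockout, a ratio of 0.57. The summed tags were 110.8 and 63.9. Its gene lies on chromosome 3 from 115710433 to 115715055, with no other coding gene in the window. The region inside the gene was almost the same in both libraries, 1506 bp with 23.0 tags (16.2 to 31.1) in wild-type cells and 1466 bp with 24.7 tags (17.6 to 34.5) in the knockout, with edges 26 bp and 14 bp apart. A second region of 1416 bp with 24.8 tags lay over the upper-coordinate end of the gene, from 115714654 to 115716070, in wild-type cells and was not called in the knockout. It held the most tags of the 30 places in the 9 windows that were called in wild type alone. Around the gene, the upper-coordinate flank held 3647 bp in wild-type cells and 1139 bp in the knockout, and the lower-coordinate flank 1207 bp and 1279 bp.

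The difference at S1pr1 rests on few regions, since the ratio of region numbers was 0.63 with an interval of 0.16 to 2.17. It was no longer called after knockout lengths were divided by 0.74, the genome-wide ratio of covered length (0.77), under a 2-fold rule, or on the gene body alone, where under 2000 bp was covered (0.77).

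S1pr4 lay in the most covered window of the family, with 31.3% in wild-type cells and 32.1% in the knockout, both above the 99th percentile of coding genes. Covered length was 13284 bp in 10 regions and 13624 bp in 12 regions. The gene, from 81497745 to 81500137 on chromosome 10, was itself covered to 89.8% and 88.0% by 1 region in each library, of 2148 bp with 43.4 tags (33.9 to 54.1) in wild-type cells and 2286 bp with 39.2 tags (29.8 to 50.7) in the knockout. These regions ended 42 bp and 286 bp inside the start, short of the printed stretch. Much of the window belongs to other genes, and 9921 bp of the wild-type and 10399 bp of the knockout cover lay in neighbouring bodies. Gna15, a G protein alpha subunit, held 8109 bp and 5681 bp over its whole body, and Ncln, encoding nicalin, 2421 bp and 4718 bp. The longest region of the window, 3975 bp with 73.1 tags (60.6 to 86.8) in wild-type cells and 3174 bp with 63.9 tags (52.0 to 78.5) in the knockout, was inside Gna15.

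Over the family, 55.2% of wild-type regions (exact interval 42.6 to 67.4) and 52.7% of knockout regions (40.7 to 64.4) shared at least 1 bp with the other list, against 29.8% and 41.0% of all regions. Sharing went with length, and member regions were longer than most, with a median of 758 bp and 669.5 bp against 500 bp for all regions in each library. All 9 wild-type and all 5 knockout regions of 2 kb and over were shared, a class in which 91.8% and 96.9% of all regions are shared. Of the 500 bp regions 6 of 19 in wild-type cells and 8 of 30 in the knockout were shared, against 16.0% and 25.7% of all. Merged across libraries, the windows held 37 places called in both, 30 in wild type alone and 35 in the knockout alone. Places in both had a median of 20.4 wild-type tags, those in wild type alone 9.62 and those in the knockout alone 8.79. The strongest of the last group was the region in Coro1c beside Selplg.

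Where 1 wild-type and 1 knockout region overlapped only each other, which was so at 35 places, the knockout region was shorter at 20, longer at 13 and of equal length at 2. The counting intervals of their tag counts overlapped at 30 of the 35. The other 5 were the 2956 bp region in Itgae, the region at the upper-coordinate end of Itgb7 and 3 at Itgb2, with fewer tags in the knockout at the Itgae region and at 2 of those at Itgb2. Median density was 15.7 normalised tags per kb in wild-type cells and 16.9 in the knockout at these places, both near the respective calling thresholds.

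**Figure D3:**
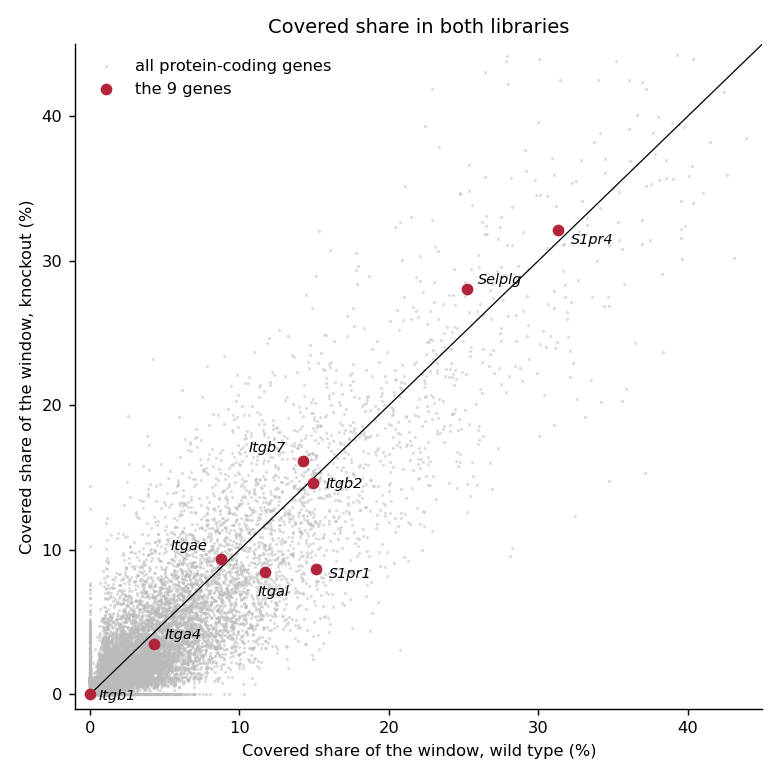
Covered share of the window in percent, wild type on the horizontal and knockout on the vertical axis, for all protein-coding genes (grey) and the 9 genes (red), with the line of equal share. S1pr4 and Selplg lie high on the line, S1pr1 and Itgal below it and Itgb1 at 0 in both, and 48 genes above 45% in either library are outside the axes.

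For the gene with the most wild-type covered length, Selplg, the coding genes with the most similar pair of covered shares were Paxx (25.1% and 28.5%), Crybg2 (24.3% and 27.7%) and 4930404N11Rik (24.0% and 27.6%). Likeness was the distance between the wild-type and knockout shares of the window, which came to 0.52, 1.07 and 1.29 percentage points, over 2 libraries.

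Other adhesion and trafficking genes, taken as a list of 55 by role, had less cover than the 9 genes and less in the knockout. Pooled, their windows were covered to 5.60% in wild-type cells and 3.94% in the knockout, and 39 had less and 12 more covered length in the knockout. Of 42 that could be judged 23 were lower by at least 1.5-fold and 2 higher, beside 39.6% and 15.4% of all coding genes. Their median ratio was 64.8%, against 78.9% over all genes. In 7 of them regions were listed in wild-type cells and none in the knockout, and in 1 the reverse. The same count was not made over all coding genes, so it is not read as particular to these.

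Among the 20 other integrin subunits, 15 could be judged, 9 of them lower and 1 higher, beside 39.6% and 15.4% of all coding genes judged. Itgax and Itgam, alpha subunits of the myeloid CD11c and CD11b integrins, held 4412 bp and 5274 bp in wild-type cells and 645 bp and 2266 bp in the knockout, and their windows overlap. Itga9 held 23715 bp and 9930 bp, Itgb5 6285 bp and 1156 bp, and Itga7 4050 bp and 1239 bp. Itga3, a laminin receptor subunit, was the one higher, with 3685 bp and 5898 bp. Itgam and Itgax also mark myeloid cells, and of the other myeloid markers Lyz2 had 634 bp and 0 bp, Csf1r 1500 bp and 1686 bp, and Cd14 no region in either. Their summed cover was 1.40% of the windows in wild-type cells and 1.11% in the knockout, and the part of other cells in these values was not tested.

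Pooled cover was 6.92% of the windows in wild-type cells and 5.32% in the knockout for integrin activators, and 10.1% and 8.15% for the S1P pathway, against 4.11% and 2.29% for the other integrin subunits. Of 10 activators 8 could be judged, and 3 were lower: Rassf5, which carries Rap1 signals to integrins, with 18338 bp and 11045 bp, Rap1b, the GTPase itself, with 10762 bp and 6898 bp, and Skap1, an adaptor, with 10658 bp and 6771 bp. None was higher. In the S1P pathway, 10 of 12 could be judged, with 5 lower and 1 higher. S1pr2 held 4459 bp in wild-type cells and 2922 bp in the knockout, Sphk2, an S1P-making kinase, 10462 bp and 6921 bp, and Spns2, an S1P exporter, 4917 bp and 2762 bp. S1pr5 was the one higher, with 2163 bp and 4193 bp. Of the selectin and glycosylation genes 3 of 5 judged were lower and none higher, and of the ligand genes 3 of 4 were lower and none higher. Each of these groups holds few genes, and over all coding genes that could be judged 39.6% were lower and 15.4% higher.

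**Figure D4:**
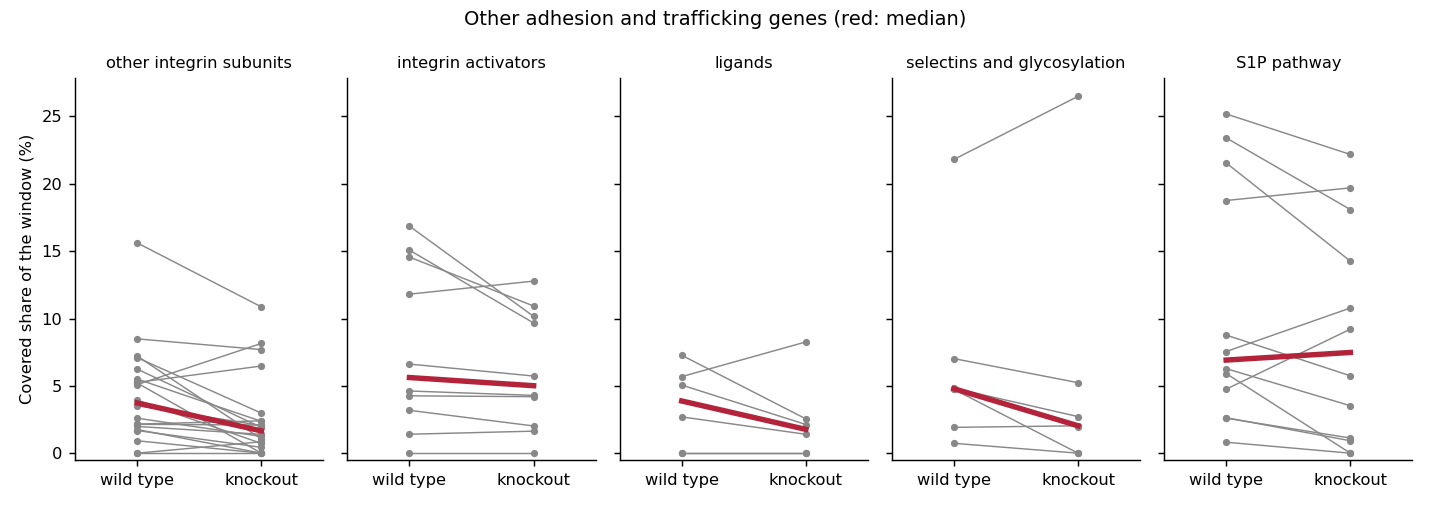
Covered share of the window in percent for each of 55 other adhesion and trafficking genes, 1 grey line per gene from wild type to knockout, in 5 groups by role, with the median in red. The median is lower in the knockout in each group except the S1P pathway, where it goes from 6.91% to 7.48% although 9 of its 12 genes have less covered length.

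The labelled cell type was checked on the windows of a few markers. Of Treg and T cell markers (Foxp3, Il2ra, Ikzf2, Ctla4, Cd4 and Cd3e), all 6 had more covered length in the knockout, with a pooled share of 13.1% in wild-type cells and 15.4% in the knockout, and only Ctla4 lacked a region in wild type. None of the 6 was called higher by the 1.5-fold rule, for which Ctla4 had too little cover, and 25.8% of all coding genes had more covered length in the knockout. B cell markers were covered to 3.17% and 4.62%, NK and CD8 markers to 2.50% and 0.71%, and erythroid markers to 4.01% and 4.70%, with no region at Ncr1 or Hbb-bs in either library. Regions of this mark near a gene do not measure its expression.

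**Figure D5:**
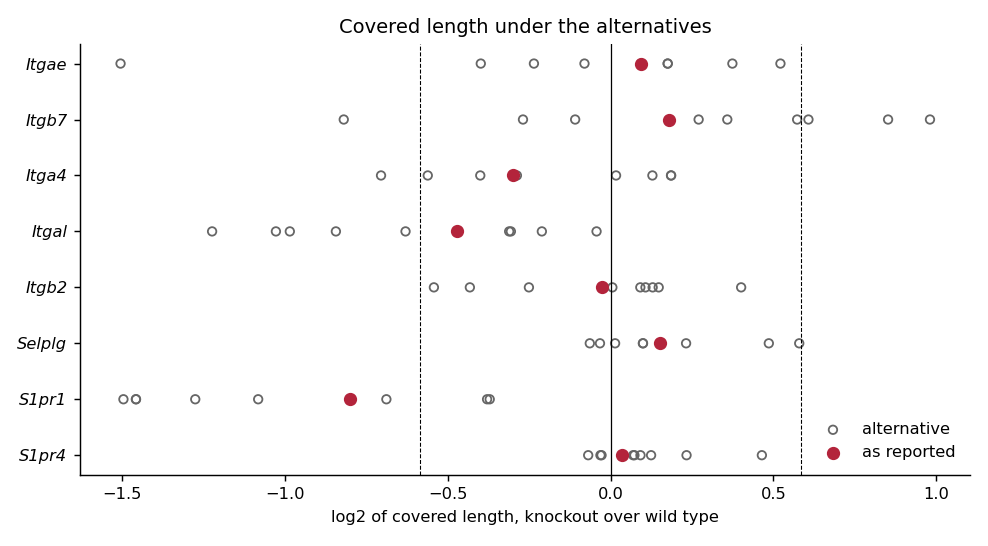
Base-2 logarithm of knockout over wild-type covered length for each of the 8 genes with regions, with the value as reported in red and the values under 9 alternatives as open circles, a solid line at equal length and dashed lines at 1.5-fold. S1pr1 and Itgal lie below equal length throughout, between 0.35 and 0.77 and between 0.43 and 0.97 as ratios, while the other 6 genes have alternatives on both sides.

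Only S1pr1 and Itgal had less covered length in the knockout under every alternative tried. After division by the genome-wide ratio of covered length they stood at 0.77 and 0.97, so Itgal was near the level of all regions. For Itgae the ratio ran from 0.35 to 1.44, for Itgb7 from 0.57 to 1.97, for Itga4 from 0.61 to 1.14 and for Itgb2 from 0.69 to 1.32, so no direction is given for these. Selplg ran from 0.96 to 1.49 and S1pr4 from 0.95 to 1.38.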

How the data were processed

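H3K36me2 was profiled in 2 libraries of splenic Treg cells, 1 wild type and 1 with a conditional Nsd2 knockout. Per the submitters' processing notes, reads were handled with Trim Galore, Bowtie2, Picard, HOMER and deepTools on mm10, with versions not given in the sources used here. Libraries came from a kit for in situ ChIP, per the labels' protocols. Per the file headers, HOMER findPeaks called regions on each library alone, with no control named in its command: peaks of 500 bp were stitched, at a Poisson p-value of 0.001. The deposited signal is a tag count scaled to 10000000 tags per library. The deposited score was used in 2 alternatives, the higher-scoring regions and the common threshold, and the deposited clonal fold change (a ratio) was not used. Region length is in the deposited lists as end minus start. The labels mention no molecular identifiers, so tags may not be independent molecules, and exact (Clopper-Pearson and Poisson) intervals cover counting error only.

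Covered length, region number and tags in windows of 20 kb flanks, gene starts and ends from RefSeq (GRCm38.p6) without strand, were computed for all 21631 coding genes with Python version 3.11.15, numpy version 2.4.6, pandas version 2.3.3 and scipy version 1.17.1, with code tested on simulated data. Strand was known only for genes in the RefSeq promoter table, which held 4 of the 9 members. Coordinates are printed as deposited. Calls are a rule of size (at least 1.5-fold, at least 2000 bp). Named were all members, listed genes past that rule with at least 4000 bp, coding neighbours, and the 3 genes most like the member with the most wild-type cover. Cell type markers were named from a fixed list. Members, lists and rules were chosen with earlier results of these data known. Alternatives changed flanks, threshold, minimum length, score, tags, merging, scale, overlap and fold.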

Additional observations from a re-analysis of the deposited data

How the results depend on the processing

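No paired analysis was possible because each genotype had 1 library, and no replicate was left out for the same reason. Depth limits the calls, as the deposited lists hold only stretches above the tag threshold. Knockout over wild-type covered length of the 9 windows was 0.96 and lay between 0.82 and 1.03 under the alternatives, except 1.29 after knockout lengths were divided by the genome-wide ratio. Summed tags, at a ratio of 1.01, were 0.93 with 50 kb flanks, 0.87 without regions under 1 kb and 0.95 with at least 15 normalised tags. The number of members lower by 1.5-fold, 1 as reported (S1pr1), was 2 with 5 kb flanks, 2 with 50 kb flanks and 2 with at least 15 tags (Itgal added each time). It was 3 without regions under 1 kb (Itgal and Itgb7 added) and 3 in the higher-scoring 50% of regions (Itgae and Itga4 added), and 0 after the division and under a 2-fold rule. On gene bodies it was 1, with Itgal in place of S1pr1. The number higher, 0 as reported, was 1 (Itgb7) on gene bodies, in the higher-scoring 50% and after the division. Requiring 50% of a region to be shared gave 37.3% of wild-type and 39.2% of knockout regions. Over the 8 single genes with cover, 70 of 72 ratios stayed within an exact interval of the reported one that counts each 500 bp of cover as 1. The exceptions were 0.35 for Itgae in the higher-scoring 50% and 0.57 for Itgb7 without regions under 1 kb. Adjoining stretches of cover are not independent counts, and these intervals are wide. That of Itgb7, reported at 1.13, still held 1.97 on the gene body. The count is thus not a measure of stability. The cause was not tested.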
